A study of Homo sapiens with 18 samples.

Results

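The genes described here code for the glycoproteins, proteoglycans and elastic fiber proteins of the extracellular matrix. They were taken by symbol from a list of 54 genes, and all 54 were found among the 20555 genes of the deposited table. By role they fell into 7 classes, namely 17 elastic fiber genes, 5 lysyl oxidases, 5 thrombospondins, 9 laminins, 4 other basement membrane genes, 7 small leucine-rich proteoglycans, and 7 other glycoproteins together with VCAN. The tumors were xenografts of MSTO-211H [sh-YAP1], an established human mesothelioma cell line that carries a short hairpin RNA against YAP1 under a doxycycline-inducible promoter. The cells were mixed with Matrigel, a basement membrane extract, and inoculated under the skin of SCID mice. Such mice lack mature T and B cells but keep their stromal and myeloid cells. All mice drank glucose-supplemented water. The 5 tumors at 0h were sampled before doxycycline was added to it, and the others after 24 h (4 tumors), 96 h (5 tumors) or 216 h (4 tumors) as labelled. For the tumors labelled 216h, the text of the study speaks of a group whose doxycycline was stopped at 96 h and which was sampled 6 days later, so whether these 4 still received it is not settled. Each mouse gave 1 tumor, and each time point was 1 cage group, so time and cage cannot be told apart.

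The extracellular matrix is the network of secreted proteins that surrounds cells. Elastic fibers have a core of cross-linked elastin on a scaffold of fibrillin microfibrils, to which fibulins, microfibril-associated proteins and latent TGF-beta binding proteins attach. Lysyl oxidases cross-link elastin and collagen. Small leucine-rich proteoglycans bind collagen fibrils and govern their spacing, whereas laminins, nidogens, perlecan and agrin build the basement membrane. YAP1 is the coactivator of the TEAD transcription factors, and several matrix genes are known as their targets. Fibroblasts are the main makers of interstitial matrix in most solid tumors.

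Levels were given in FPKM (fragments per kilobase of transcript and per unit of mapped fragments), a unit corrected for gene length and for the library total. A gene entered the test if 4 or more tumors reached 1 FPKM. The 11379 genes that did were tested with limma on log2(FPKM + 1), and a gene was called at a Benjamini-Hochberg adjusted p under 0.05. Of the 54 genes, 48 passed this filter. The other 6 stayed low, with highest values of 1.20 FPKM for LTBP1, 0.784 FPKM for EMILIN2, 0.577 FPKM for FBN2, 0.355 FPKM for COMP, 0.197 FPKM for LAMB3 and 0.0767 FPKM for TNXB. TNXB is uncertain at any level, since it shares sequence with the pseudogene TNXA. ELN and EMILIN1 passed only through the tumors at 216h, as 2 and 3 of the other tumors reached 1 FPKM for them.

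YAP1 itself, the gene targeted by the hairpin, ranged from 4.82 to 10.2 FPKM at 0h, from 4.60 to 8.16 at 24h, from 3.39 to 6.81 at 96h and from 5.60 to 8.85 at 216h. These ranges overlapped, and the change was not called at 24h (log2 fold change -0.27 ± 0.20, SE, adjusted p = 0.742), at 96h (-0.52 ± 0.19, adjusted p = 0.221) or at 216h (0.00041 ± 0.203, adjusted p = 0.999). The number of genes listed at 0 ran from 4767 to 6491 per tumor. All 5 tumors at 0h had 6000 or more of them and all 5 at 96h had 4873 or fewer, so this property and the comparison of 96h with 0h cannot be told apart. Mitochondrially encoded genes took 80.0% to 83.8% of the summed FPKM at 0h and 74.9% to 76.0% at 216h, and the part of this difference in the values at 216h was not tested beyond the rescaling given with them. Whether fragments of mouse origin were removed is not given in the sources used here.

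The main change in the matrix genes came at 216h. Against 0h, 24 of the 48 tested genes were called higher and 0 lower, beside 19.7% of all tested genes called higher and 3.60% called lower. Their median log2 fold change was 0.55, against 0.17 over all tested genes, so that values at 216h are best read against this shift of 0.17. The genes called higher belonged to the elastic fibers (9 of 14 tested), the small proteoglycans (7 of 7), the other glycoproteins (3 of 6), the thrombospondins (2 of 4), the laminins (2 of 8) and the other basement membrane genes (1 of 4). None of the 5 lysyl oxidases was called, and 0 of these 5 had an unadjusted p under 0.05 in this comparison. Without ELN and EMILIN1, 23 of 46 genes and 8 of 12 elastic fiber genes were called higher. In 23 of the 48 genes every tumor at 216h lay above every tumor at 0h, which held for 16.0% of all tested genes. These 23 include ELN, which entered only through the tumors at 216h.

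**Figure D1:**
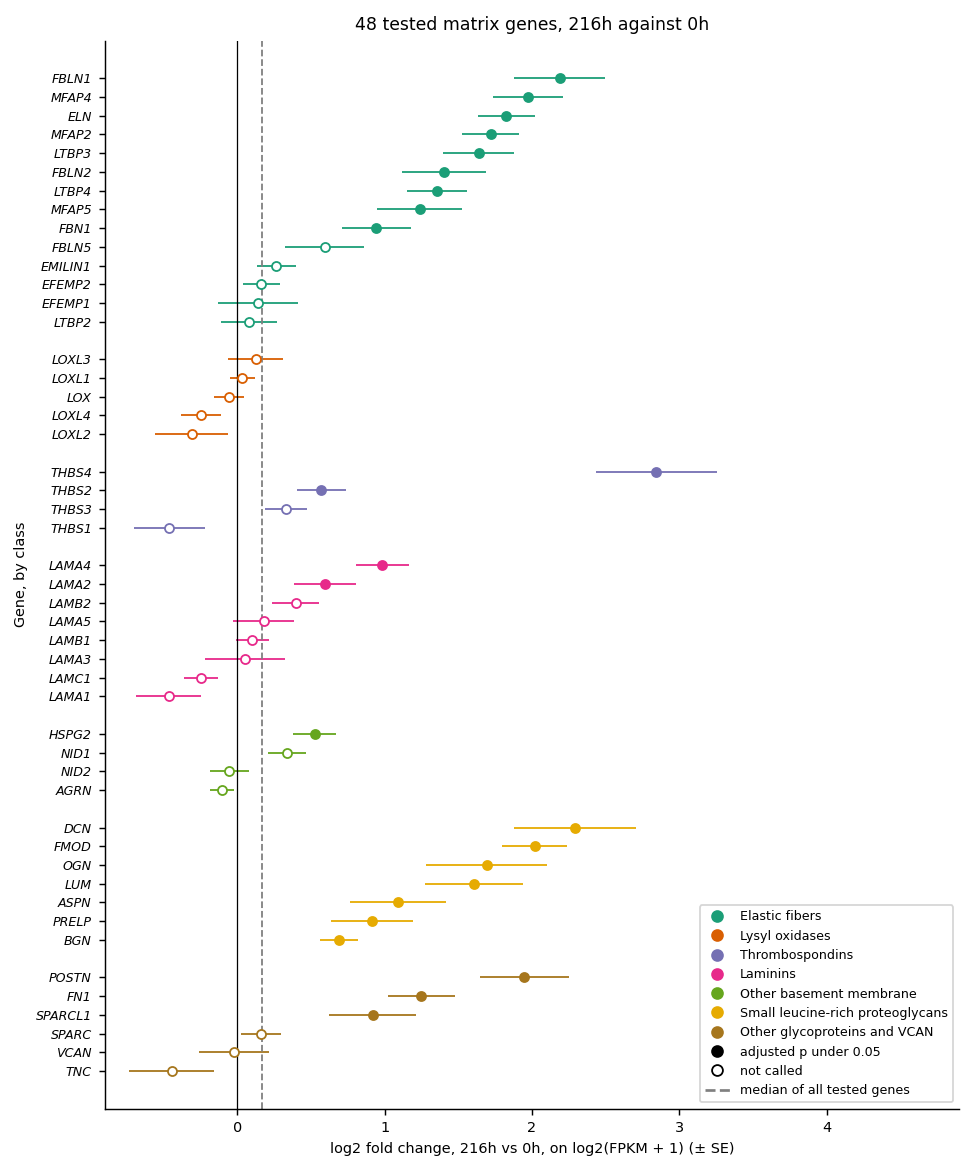
log2 fold change at 216h against 0h on log2(FPKM + 1), with its SE, for each of the 48 tested genes (4 against 5 tumors), grouped by class. Filled points were called at an adjusted p under 0.05, and the dashed line marks the median of all tested genes at 0.17. All 7 small proteoglycans and 9 of 14 elastic fiber genes lie to the right of it with filled points, whereas the 5 lysyl oxidases lie to its left with open points.

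The share of higher calls depended on how the libraries were scaled. Over all tested genes, 84.6% of the calls at 216h against 0h were higher as deposited, 51.4% after quantile normalization, 43.8% after median scaling and 68.4% after rescaling without the mitochondrially encoded genes. The matrix genes called higher numbered 19, 18 and 20 under these 3 scalings, all of them among the 24. Over all tested genes, those called higher numbered 1037 of 11379, 992 of 11379 and 1538 of 11366, in place of 2246 of 11379 as deposited. Called lower there were 2, 4 and 1 of the 48, as given with their classes. Over all tested genes, 980, 1274 and 709 were called lower, in place of 410 as deposited. The median of the 48 genes minus that of all tested genes was 0.38 as deposited and between 0.33 and 0.40 under the same 3 scalings.

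In the same comparison, in which 19.7% of all tested genes were called higher and 3.60% lower, markers of several cell types moved. Whether their values come from host or tumor cells was not tested, and the fibroblast list holds collagen genes, which are themselves matrix genes. The summed FPKM of 10 fibroblast markers ranged from 1325 to 1820 at 0h and from 3321 to 3791 at 216h, and 6 of the 9 tested were called higher. PDGFRA, a receptor that marks fibroblasts, ranged from 4.55 to a highest value of 10.47 FPKM at 0h and from 6.81 to 13.3 at 216h, overlapping. DPT (dermatopontin) ranged from 0.751 to 1.13 FPKM at 0h and from 5.67 to 9.94 at 216h. Leukocyte markers summed to between 65.1 and 102 FPKM at 0h and between 125 and 215 at 216h (14 markers, 8 of 12 tested called higher, 1 lower), and their defining markers PTPRC and CSF1R were above 0 in every tumor. The 8 skeletal muscle markers ranged from 2.13 to 56.8 FPKM at 0h and from 4.68 to 95.5 at 216h, with 0 of 7 tested called by limma and 1 of 7 at an unadjusted p under 0.05. Endothelial markers summed to 12.7 to 16.3 FPKM at 0h and 14.5 to 22.0 at 216h (1 of 6 tested called higher), mural cell markers to 25.0 to 46.2 and 34.1 to 58.2 (0 of 4 called, 2 at an unadjusted p under 0.05 with limma) and adipocyte markers to 3.59 to 18.4 and 15.1 to 60.00 (0 of 2 called, 1 at an unadjusted p under 0.05). Mesothelial markers summed to 344 to 425 FPKM at 0h and 167 to 237 at 216h, with 2 of 4 tested called lower. Of the defining mesothelial markers, CALB2 (calretinin) ranged from 0.964 to 3.89 FPKM at 0h and from 0 to 4.77 FPKM at 216h, overlapping, whereas WT1 stayed under 0.444 FPKM in all tumors. The part of these cell types in the matrix gene values was not tested. In bulk tumors, more cells of a type and more RNA per cell cannot be told apart.

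Elastin and the proteins of its scaffold were higher at 216h. ELN, the core protein of the elastic fiber and a negative effector of TEAD in the study's lists, measured 0.355, 1.06, 0.713, 0.418 and 0.653 FPKM in the 5 tumors at 0h. At 24h its values were 0.610, 0.501, 0.318 and 0.190 FPKM, and at 96h they were 0.888, 0.232, 1.65, 0.559 and 0.907 FPKM. At 216h it reached 3.62, 4.33, 5.97 and 5.35 FPKM. The 4 tumors at 216h lay above all 14 others, which overlapped among themselves. The ratio of the mean FPKM at 216h to that at 0h was 7.52, and the log2 fold change was 1.82 ± 0.19 (SE). Since ELN entered the test only through the tumors at 216h, where it was high, these are given as a description with no test.

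The microfibril-associated proteins, which sit on fibrillin, rose with it. MFAP4 had 23.2, 17.5, 18.5, 16.6 and 11.8 FPKM at 0h and 63.6, 63.5, 89.96 and 66.9 FPKM at 216h. In between it had 23.2, 20.3, 17.2 and 8.01 FPKM at 24h and 19.7, 13.7, 16.8, 18.4 and 23.5 FPKM at 96h. The tumors at 216h stood clear of the rest, and the log2 fold change against 0h was 1.97 ± 0.24 (adjusted p = 3.10e-05). MFAP2 had 1.47, 2.12, 1.24, 1.57 and 0.485 FPKM at 0h, 1.24, 0.775, 1.17 and 0.672 FPKM at 24h, and 1.80, 1.05, 1.25, 1.54 and 1.64 FPKM at 96h. It had 5.68, 7.20, 4.92 and 9.32 FPKM at 216h, again above every other tumor (1.72 ± 0.20, adjusted p = 1.66e-05). The third member of this group, MFAP5, was also called higher, from a mean of 22.2 ± 5.83 FPKM (SD, n = 5) at 0h to 53.8 ± 14.0 FPKM (n = 4).

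Among the fibulins, which bridge elastin and microfibrils, FBLN1 had the largest change of the 3 members tested under that name. It had 8.09, 11.97, 11.4, 14.2 and 4.68 FPKM at 0h, 15.1, 11.8, 9.26 and 6.63 FPKM at 24h, and 13.4, 5.56, 16.4, 10.2 and 16.1 FPKM at 96h. The tumors at 216h had 35.2, 40.9, 61.3 and 53.7 FPKM, above the highest value elsewhere, 16.4 FPKM, in each tumor. Its log2 fold change against 0h was 2.19 ± 0.31 (adjusted p = 0.000113). FBLN2 was called higher with 1.40 ± 0.28 (adjusted p = 0.00193), and FBLN5 had 0.59 ± 0.27 (adjusted p = 0.118), with 2 of 4 tumors above all those at 0h. EFEMP1 had the highest mean level of all elastic fiber genes over the 18 tumors, 38.2 FPKM. It had 42.4 ± 11.8 FPKM at 0h, 30.8 ± 10.8 at 24h, 32.9 ± 9.86 at 96h and 46.9 ± 13.1 at 216h, overlapping throughout (0.14 ± 0.27 at 216h, adjusted p = 0.749). Its sign turned under median scaling and without tumor 2 at 0h or tumor 2 at 216h. EFEMP2 and LTBP2 were not called at 216h against 0h either.

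LTBP4, which anchors latent TGF-beta to the matrix and is needed for elastic fiber assembly, is the other negative TEAD effector among these genes. At 0h it had 32.3, 19.9, 17.5, 28.1 and 18.7 FPKM, at 24h 31.4, 38.7, 23.2 and 21.9 FPKM. At 96h it had 38.2, 28.1, 52.6, 42.7 and 41.3 FPKM, so that 4 of 5 tumors lay above all those at 0h. At 216h it had 47.0, 65.2, 67.0 and 61.3 FPKM, all above every value at 0h and 24h. The log2 fold change was 0.30 ± 0.21 at 24h (adjusted p = 0.706), 0.79 ± 0.19 at 96h (adjusted p = 0.0504) and 1.36 ± 0.21 at 216h (adjusted p = 0.000183). The value at 96h missed the threshold narrowly and passed it under 8 of 19 alternatives, with adjusted p between 0.0223 and 0.152. Without tumor 3 at 96h it was 0.69 (adjusted p = 0.152). LTBP3, its close relative, had a mean of 7.15 ± 1.90 FPKM at 0h, 10.6 ± 4.14 at 96h and 23.9 ± 2.92 at 216h, and was called at 216h. FBN1, fibrillin-1, rose from 13.3 ± 1.48 FPKM at 0h to 26.8 ± 5.70 at 216h (0.94 ± 0.23, adjusted p = 0.00727).

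**Figure D2:**
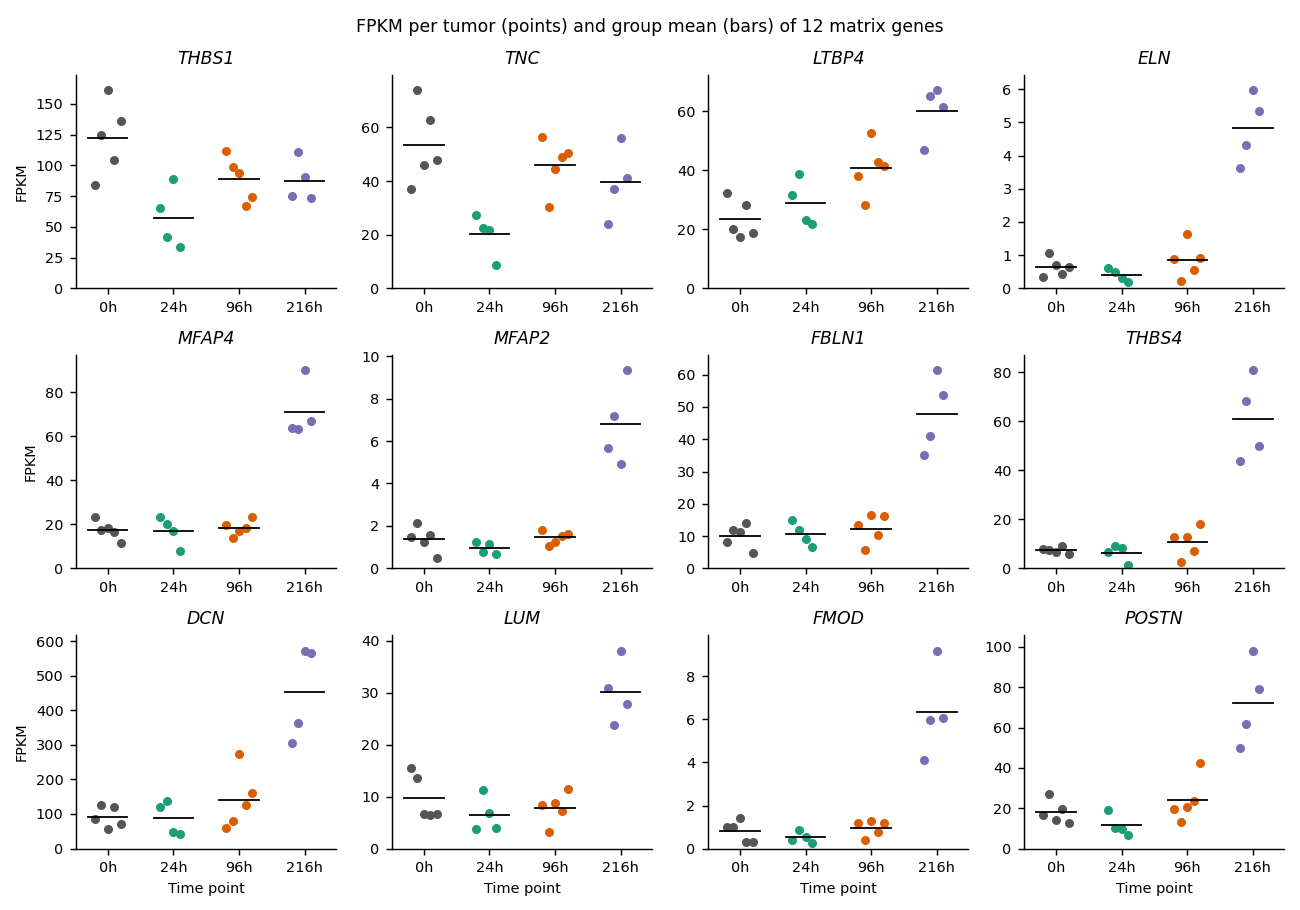
FPKM of 12 matrix genes in each of the 18 tumors (points) with the group mean (bars), by time point, on linear axes that start at 0. TNC was added to the 11 genes chosen by rule after its values were seen. In 9 of the panels, ELN to POSTN, the 4 tumors at 216h stand above all others, LTBP4 climbs from 0h to 216h, and THBS1 and TNC are lowest at 24h.

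Lysyl oxidases, the enzymes that cross-link elastin and collagen, were not called at 216h. LOXL1, the member with the highest mean level at 81.6 FPKM over the 18 tumors, had 88.4 ± 5.98 FPKM (SD, n = 5) at 0h, 66.7 ± 4.38 (n = 4) at 24h, 79.1 ± 3.62 (n = 5) at 96h and 91.0 ± 11.3 (n = 4) at 216h. At 216h its log2 fold change was 0.04 ± 0.09 (adjusted p = 0.804), and the sign turned under quantile normalization, median scaling and rescaling without the mitochondrially encoded genes, and without tumor 4 at 216h. At 24h all 4 tumors lay below all 5 at 0h, with values from 61.4 to 71.4 against 81.4 to 94.5 FPKM (-0.40 ± 0.09, adjusted p = 0.0622). The changes of the 5 enzymes at 216h ran from -0.31 for LOXL2 to 0.13 for LOXL3. LOXL4 was the exception in its ranges, with 2.60 to 3.18 FPKM at 0h and 1.46 to 2.56 FPKM at 216h, although its change was not called (-0.25 ± 0.13, adjusted p = 0.195). At 96h its 5 tumors also lay below all those at 0h. It was called lower after quantile normalization and after median scaling, and LOX after median scaling.

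Thrombospondins, large glycoproteins that link matrix and cell surface, split. THBS4 had the largest log2 fold change at 216h of the 48 genes. It had 7.86, 7.66, 6.71, 8.95 and 5.93 FPKM at 0h, 6.87, 9.30, 8.23 and 1.52 FPKM at 24h, and 12.8, 2.76, 12.7, 7.00 and 18.0 FPKM at 96h. At 216h it had 43.8, 68.4, 80.7 and 49.99 FPKM, all above the 14 other tumors, with a ratio of means to 0h of 8.18 and a log2 fold change of 2.84 ± 0.41 (adjusted p = 0.000136). THBS2 was called with a smaller change, from 14.4 ± 2.72 FPKM at 0h to 21.6 ± 1.39 FPKM at 216h (0.57 ± 0.17, adjusted p = 0.0189), and lost the call under quantile normalization, median scaling and a restriction to tumors with more genes listed at 0. THBS3 was not called in any comparison.

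THBS1, a positive effector of TEAD in the study's lists, which were not drawn from these tumors, and the most abundant thrombospondin at a mean of 90.8 FPKM over the 18 tumors, went the other way. It had 83.9, 124, 161, 104 and 136 FPKM at 0h, and 65.3, 42.0, 88.6 and 33.8 FPKM at 24h. At 96h it had 111, 98.3, 93.4, 67.0 and 74.1 FPKM, and at 216h 74.8, 111, 90.3 and 73.8 FPKM. At 24h, 3 of 4 tumors were below every tumor at 0h, and the later groups overlapped with 0h. The mean at 24h was 0.471 times that at 0h, with a log2 fold change of -1.14 ± 0.24 (adjusted p = 0.0597). This value passed the threshold under 2 of 19 alternatives, a filter of 5 FPKM (adjusted p = 0.0400) and without tumor 3 at 24h (adjusted p = 0.0214), with adjusted p up to 0.328 over the others. At 96h the change was -0.44 ± 0.23 (adjusted p = 0.430) and at 216h -0.46 ± 0.24 (adjusted p = 0.181).

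TEAD factors bind the motif GGAATG, and the promoters of these genes were searched for it on both strands, where its reverse complement is CATTCC. RefSeq promoter windows on GRCh38.p14, 250 bases before to 50 after a gene's start, were found for 44 of the 54 genes, and 11 of them (25.0%) held a match in at least 1 window. Among all 27305 symbols in the table, 16.7% did. Of the genes called higher at 216h, 5 of 19 with a window held a match, as did 3 of 19 tested genes that were not called higher. No window was found for ELN, EFEMP1, MFAP4, MFAP5, EMILIN1, LOXL2, LAMA1, AGRN, DCN and LUM. THBS2 has a match on each strand, as does PRELP, which is not shown. The sequences shown are those of the TEAD effectors THBS1 and LTBP4, of THBS2 and of the abundant SPARC. Each gives the 250 bases before the start, 5′ to 3′ on the gene's strand, with the matches in capitals. That of THBS1 lies at chr15:39580829-39581078 on the plus strand, with its match beginning 46 bases before the start. The THBS2 window, at chr6:169253847-169254096 on the minus strand, has matches beginning 103 and 91 bases before the start. The LTBP4 window, 1 of its 2 and the only one of them with a match, lies at chr19:40592916-40593165 on the plus strand, its match 170 bases before the start. SPARC has its match 17 bases before the start, in chr5:151686916-151687165 on the minus strand.
THBS1: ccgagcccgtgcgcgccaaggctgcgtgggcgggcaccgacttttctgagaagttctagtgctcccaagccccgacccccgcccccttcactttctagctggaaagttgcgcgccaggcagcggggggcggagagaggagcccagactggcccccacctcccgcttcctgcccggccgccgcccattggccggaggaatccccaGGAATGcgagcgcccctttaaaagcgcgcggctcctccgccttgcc
THBS2: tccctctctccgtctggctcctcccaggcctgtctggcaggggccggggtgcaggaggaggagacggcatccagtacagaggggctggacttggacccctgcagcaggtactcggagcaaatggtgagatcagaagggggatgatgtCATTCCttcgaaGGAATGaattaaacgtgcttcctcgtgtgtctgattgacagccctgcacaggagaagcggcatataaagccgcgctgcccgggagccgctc
LTBP4: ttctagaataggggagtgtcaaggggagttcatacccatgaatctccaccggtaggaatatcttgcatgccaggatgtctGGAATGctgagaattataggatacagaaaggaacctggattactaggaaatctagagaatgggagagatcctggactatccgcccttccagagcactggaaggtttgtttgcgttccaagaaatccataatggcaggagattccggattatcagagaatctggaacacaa
SPARC: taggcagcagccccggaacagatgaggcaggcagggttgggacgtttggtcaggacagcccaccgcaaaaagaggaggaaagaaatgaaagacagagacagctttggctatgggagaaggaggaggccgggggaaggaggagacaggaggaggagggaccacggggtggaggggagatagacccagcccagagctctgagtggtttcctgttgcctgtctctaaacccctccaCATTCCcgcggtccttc
A match is a string of letters and not a measured binding site, and the windows of the strongest risers with an entry, THBS4, FBLN1, FMOD, POSTN and MFAP2, held none.

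All 7 small leucine-rich proteoglycans were called higher at 216h against 0h, the class with the highest median change, 1.61. DCN, decorin, which binds collagen fibrils and TGF-beta, had 86.0, 127, 57.9, 119 and 70.6 FPKM at 0h, 121, 137, 47.3 and 41.8 FPKM at 24h, and 60.8, 80.5, 274, 126 and 161 FPKM at 96h. At 216h it had 305, 364, 573 and 566 FPKM, above all others, although tumor 3 at 96h came near (2.29 ± 0.41, adjusted p = 0.000765). LUM, lumican, had 15.5, 13.6, 6.61, 6.55 and 6.56 FPKM at 0h, 3.69, 11.2, 6.88 and 3.89 FPKM at 24h, and 8.35, 3.12, 8.74, 7.27 and 11.6 FPKM at 96h. The values at 216h were 30.8, 23.8, 38.1 and 27.7 FPKM, again with no overlap (1.61 ± 0.33, adjusted p = 0.00222).

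FMOD, fibromodulin, a regulator of collagen fibril assembly, started from about 1 FPKM. It had 0.986, 1.01, 1.44, 0.311 and 0.323 FPKM at 0h, 0.402, 0.850, 0.537 and 0.270 FPKM at 24h, and 1.19, 0.409, 1.28, 0.747 and 1.17 FPKM at 96h. It reached 4.12, 5.99, 9.20 and 6.07 FPKM at 216h, with a ratio of means to 0h of 7.80 and a log2 fold change of 2.02 ± 0.22 (adjusted p = 1.17e-05). BGN, biglycan, was the most abundant proteoglycan of the class and rose least. Its mean was 697 ± 85.9 FPKM (SD, n = 5) at 0h, 647 ± 145 (n = 4) at 24h, 826 ± 87.3 (n = 5) at 96h and 1118 ± 47.0 (n = 4) at 216h (0.69 ± 0.13, adjusted p = 0.000953). OGN, ASPN and PRELP were called too, with log2 fold changes of 1.69, 1.09 and 0.91. ASPN lost its call under median scaling and without tumor 5 at 0h or tumor 3 at 216h, and PRELP under 6 of 19 alternatives.

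Of these genes, 6 lie as neighbours on GRCh38. LUM (chr12:91102628-91111831) and DCN (chr12:91140483-91183123) are 28.7 kb apart, OGN (chr9:92383966-92404696) and ASPN (chr9:92456204-92482506) 51.5 kb apart, and FMOD (chr1:203340627-203351489) and PRELP (chr1:203475827-203491352) 124.3 kb apart. Each of the 6 was called higher at 216h, with unequal sizes in FMOD and PRELP (2.02 against 0.91) and more alike in DCN and LUM (2.29 against 1.61). The difference within a pair was not tested. BGN, on the X chromosome (chrX:153494938-153509554), has no other member within 200 kb.

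Among the other glycoproteins, POSTN, periostin, rose most at 216h. It had 16.6, 26.9, 14.4, 19.5 and 12.5 FPKM at 0h, 19.1, 10.1, 9.82 and 6.69 FPKM at 24h, and 19.7, 13.3, 20.8, 23.4 and 42.6 FPKM at 96h. At 216h it had 49.9, 61.7, 98.1 and 79.3 FPKM, above every other tumor (1.95 ± 0.30, adjusted p = 0.000231). FN1, fibronectin, the main adhesive glycoprotein of interstitial matrix, rose from 108 ± 23.7 FPKM at 0h to 254 ± 26.9 at 216h (1.25 ± 0.23, adjusted p = 0.000844). SPARCL1 was called as well (0.92 ± 0.29, adjusted p = 0.0300), a call that was lost under 11 of 19 alternatives. Its relative SPARC, a collagen-binding glycoprotein and the most abundant of the 54 genes at a mean of 876 FPKM, had 908 ± 173 FPKM at 0h, 759 ± 106 at 24h, 828 ± 93.8 at 96h and 1012 ± 170 at 216h. These groups overlapped, with a log2 fold change of 0.16 ± 0.13 at 216h (adjusted p = 0.412) that turned its sign under median scaling. VCAN, the large proteoglycan versican, was not called in any comparison.

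Genes of the basement membrane changed less. Of the laminins, LAMB1, the most abundant chain with a mean of 114 FPKM over the 18 tumors, had 103 ± 17.7 FPKM at 0h, 106 ± 9.73 at 24h, 134 ± 11.5 at 96h and 109 ± 4.43 at 216h. All 5 tumors at 96h lay above all 5 at 0h and all 4 at 216h, although the change was not called (0.39 ± 0.11 against 0h, adjusted p = 0.0940). It was called higher at 96h after quantile normalization and after rescaling without the mitochondrially encoded genes. At 216h its change against 0h was 0.10 ± 0.11 (adjusted p = 0.552), and the sign turned under median scaling, without the mitochondrially encoded genes and without tumor 4 at 0h. LAMA4, a chain of vascular and mesenchymal laminins, was called higher at 216h, from 9.35 ± 2.20 to 19.2 ± 2.11 FPKM (0.99 ± 0.18, adjusted p = 0.000881), a call that held in each of 19 refits and is left out by the log2 limit of 1. LAMA2, the chain of muscle laminin, was called at an adjusted p of 0.0462 with overlapping groups and kept the call under 5 of 18 alternatives. The other 6 tested laminin chains were not called and ran from -0.46 for LAMA1 to 0.40 for LAMB2. LAMC1, with -0.25 ± 0.12 (adjusted p = 0.134), was called lower after quantile normalization, median scaling and rescaling without the mitochondrially encoded genes.

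HSPG2, perlecan, was the only called gene among the other basement membrane genes, with a mean of 32.2 ± 6.65 FPKM at 0h and 46.4 ± 6.79 at 216h (0.53 ± 0.15, adjusted p = 0.0143), and the call was lost under 5 of 19 alternatives. AGRN, agrin, the most abundant of them with a mean of 53.8 FPKM over the 18 tumors, had 55.8 ± 5.00 FPKM at 0h, 53.3 ± 1.82 at 24h, 53.6 ± 4.09 at 96h and 51.9 ± 2.04 at 216h (-0.10 ± 0.08, adjusted p = 0.404). It was called lower under median scaling only, at -0.36 (adjusted p = 0.00626). The nidogens NID1 and NID2, which link laminin and collagen networks, were not called at 216h against 0h.

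At 24h most matrix genes had a log2 fold change below 0 and none was called. Of the 48 tested genes, 38 had a log2 fold change below 0, as did 59.2% of all tested genes, and the median was -0.21, against -0.04 over all tested genes. With limma, 0 were called higher, beside 0.00879% of all tested genes, and 0 lower, beside 0.149%, and 6 had an unadjusted p under 0.05, as did 9.20% of all tested genes. TNC, tenascin-C, a glycoprotein of tissue repair and tumor stroma, was named after its values were seen, as were LOXL1 at 24h and the laminins LAMA4, LAMA2 and LAMC1. TNC had 36.9, 73.8, 46.1, 62.8 and 47.9 FPKM at 0h and 27.5, 22.5, 21.8 and 8.74 FPKM at 24h, without overlap. At 96h it had 56.4, 30.2, 44.6, 49.1 and 50.3 FPKM and at 216h 24.1, 37.1, 56.2 and 41.2 FPKM, both overlapping with 0h. Its mean at 24h was 0.376 times that at 0h (-1.43 ± 0.29, adjusted p = 0.0533), and the value passed the threshold with a filter of 5 FPKM (adjusted p = 0.0361) and without tumor 1 at 24h (adjusted p = 0.0462), with adjusted p up to 0.359 over 19 alternatives. THBS1, TNC and LOXL1 were the 3 genes called lower under the filter of 5 FPKM, of 36 that passed it. In that fit, 30 of all 6699 tested genes were called lower.

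Tumor 4 at 24h carried part of this. It was the lowest of the 4 tumors in 34 of the 48 genes, as it was in 18.6% of all tested genes, and it also had the lowest fibroblast marker sum of all 18 tumors, 921 FPKM. The other 3 tumors at 24h had sums from 1187 to 1685 FPKM. Tumor 2 at 96h was likewise lowest in 29 of the 48 genes, against 39.6% of all tested genes, and had the lowest fibroblast sum at 96h, 1132 FPKM. Tumor 3 at 216h was highest in 23 of the 48, against 28.9% of all tested genes, with the highest fibroblast sum of all, 3791 FPKM. Tumor 3 at 96h stood apart in adipocyte markers, which summed to 235.8 FPKM in it and to between 4.89 and 9.93 FPKM in the other 4 tumors at 96h. It was highest of its group in 15 of the 48 genes, ELN, LTBP4 and DCN among them, against 22.9% of all tested genes. Tumor 5 at 96h was also highest in 15 of the 48, against 34.6% of all tested genes. The part of fibroblasts and adipocytes in these differences was not tested.

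**Figure D3:**
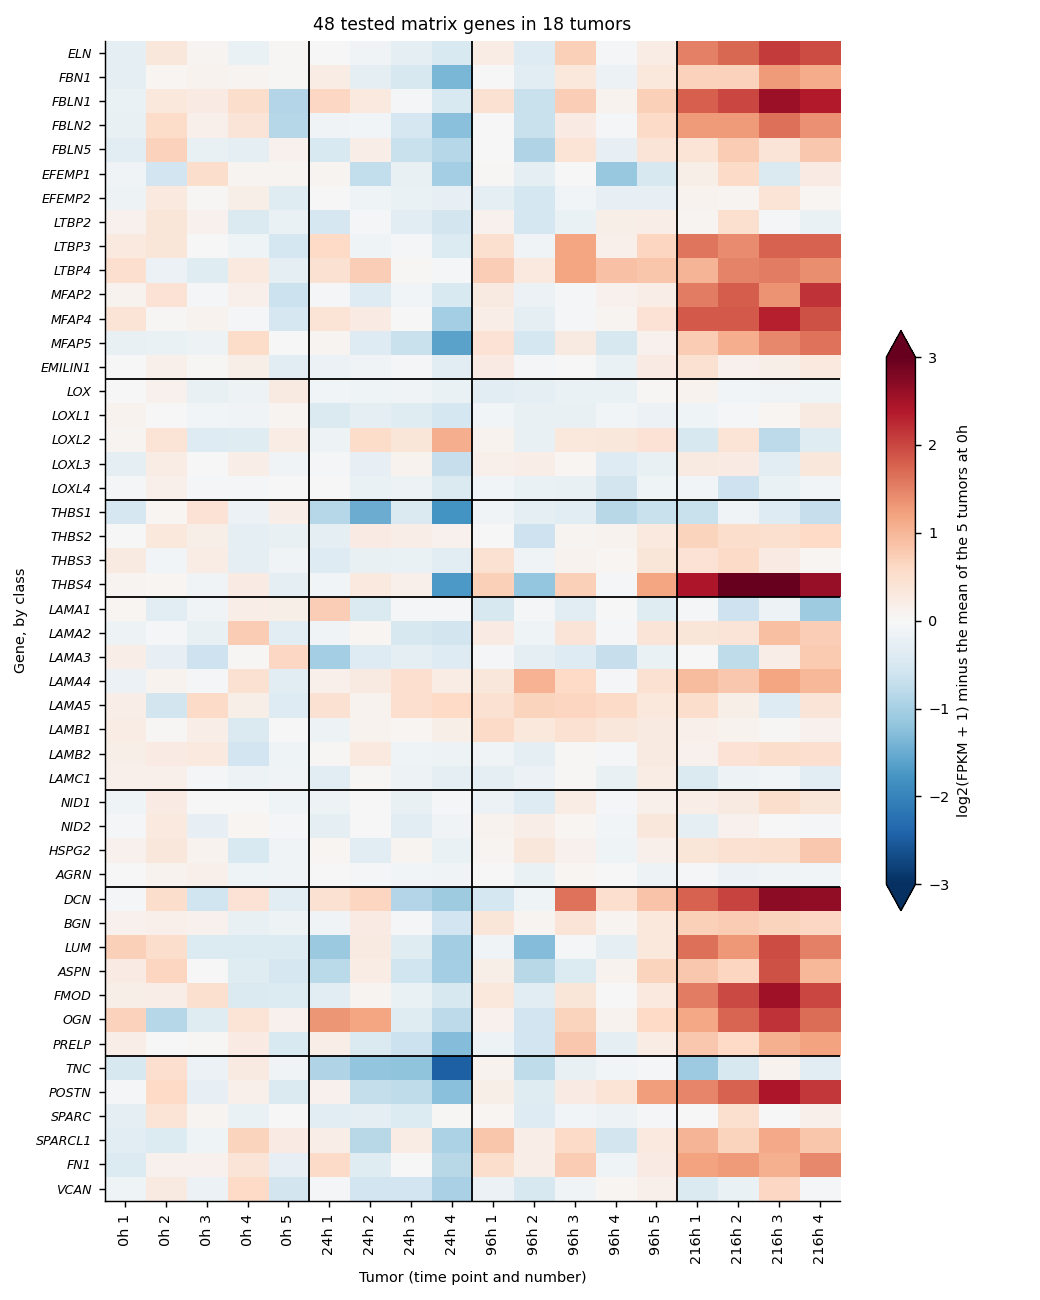
log2(FPKM + 1) minus the mean of the 5 tumors at 0h for the 48 tested genes (rows, by class) in each of the 18 tumors (columns), with colors capped at 3 in either direction. Red blocks at 216h in the elastic fiber genes, the small proteoglycans, THBS4 and POSTN stand beside pale rows in the lysyl oxidases and basement membrane genes, and tumor 4 at 24h is the lowest of its group in 34 genes.

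At 96h no matrix gene was called. With limma, 0 of the 48 were higher, beside 0.316% of all tested genes, and 0 lower, beside 1.06%, and 5 had an unadjusted p under 0.05, as did 13.1% of all tested genes. The median was 0.03, against 0.02 over all tested genes, and class medians ran from -0.16 for the lysyl oxidases to 0.13 for the small proteoglycans. LTBP4 came nearest to a call.

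Between 96h and 216h, the matrix genes moved much as between 0h and 216h, although both comparisons share the tumors at 216h and are not independent. Higher at 216h were 20 of the 48, beside 10.3% of all tested genes, and lower 0, beside 0.747%. Without ELN and EMILIN1 it was 19 of 46, with 8 of 12 elastic fiber genes. The median of the 48 was 0.44, against a shift of 0.16 over all tested genes. The calls took in 9 of 14 elastic fiber genes, 7 of 7 small proteoglycans, 2 of 4 thrombospondins and 2 of 6 other glycoproteins, and 0 of 5 lysyl oxidases, 0 of 8 laminins and 0 of 4 other basement membrane genes. By size they were led by THBS4 (2.56 ± 0.41, adjusted p = 0.00116), FBLN1 (1.92 ± 0.31, adjusted p = 0.00116), MFAP4 (1.89 ± 0.24, adjusted p = 0.000170) and LUM (1.89 ± 0.33, adjusted p = 0.00204). FMOD (1.89 ± 0.22), DCN (1.82 ± 0.41, and 2.11 without tumor 3 at 96h) and MFAP2 (1.64 ± 0.20) followed. ELN had 1.68 ± 0.19, again given as a description with no test. LTBP4 was not called here (0.57 ± 0.21, adjusted p = 0.0793).

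This second count was less firm than the first. It fell to 12 under quantile normalization, median scaling and rescaling without the mitochondrially encoded genes. The share of higher calls over all tested genes was 54.6%, 48.9% and 67.0% there, in place of 93.3%. The count over all tested genes fell as well, from 1175 called higher to 378, 321 and 412. Without tumor 3 at 216h it was 13. With a covariate for the number of genes listed at 0 it was 4, namely ELN, MFAP2, MFAP4 and FMOD, beside 43 of all 11379 tested genes. ELN had entered the test only through the tumors at 216h. In that fit only 1 tumor at 216h shared the side of all 5 tumors at 96h. BGN kept its call under 6 of 18 alternatives.

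Of 75 further matrix genes that are no members, 38 were tested, and 8 were called higher and 3 lower at 216h against 0h, a share of higher calls near the 19.7% of all tested genes. Among them were FBLN7 of the fibulin family (2.26 ± 0.25, adjusted p = 1.31e-05) and PODN, another small leucine-rich proteoglycan (1.96 ± 0.27, adjusted p = 9.02e-05), both higher. SRGN, the intracellular proteoglycan serglycin, was lower (-1.22 ± 0.13, adjusted p = 1.10e-05). These 3 were named after their values were seen. At 96h against 0h, 0 of the 38 were called higher, beside 0.316% of all tested genes, and 3 lower, beside 1.06%. The 3 lower, also named after their values were seen, were ABI3BP, a negative effector in the study's lists, and the positive effectors FSTL1 and MATN2. Of the effectors among the 38, only the positive GPC6 was called higher at 216h against 0h (0.97 ± 0.17, adjusted p = 0.000776). Only the negative ABI3BP was called lower in that comparison (-0.55 ± 0.18, adjusted p = 0.0341). GPC6 too was named after its values were seen. At 24h 0 were called in either direction, beside 0.00879% of all tested genes higher and 0.149% lower. There 4 had an unadjusted p under 0.05 in limma, as did 9.20% of all tested genes. At 216h against 96h, 7 were higher, beside 10.3% of all tested genes, and 2 lower, beside 0.747%.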

How the data were processed

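RNA of 18 tumors was made into target-enriched libraries and sequenced in paired-end reads. The submitters' processing notes name STAR and GRCh38; the quantification tool and the handling of mouse reads are not given in the sources used here. The authors deposited 1 table of FPKM values per gene and tumor, a unit recognised from column sums of 907662 to 1256546; 4 empty cells were read as 0. No counts were analysed, so depth is unknown and no counting interval was computed.

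Groups came from the labelled time point. In R 4.3.3, the package limma 3.58.1 was used to fit the means of the 4 groups together (lmFit, then eBayes, trend on), taking log2(FPKM + 1) of each gene that reached 1 FPKM in 4 or more tumors, with two-sided tests and Benjamini-Hochberg adjustment over all 11379 genes in each of 4 comparisons. Fold changes on this scale understate those of low genes. The script was tested on simulated data. Nothing was paired, as each mouse gave 1 tumor, and p-values measure the spread between tumors of 1 cage group. No pair of tumors within a group had identical values.

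The members, classes and marker lists were chosen with earlier results of these data known. Given in every tumor were the 3 TEAD effectors of the study's lists and, per comparison, up to 8 called members in each direction; the most abundant member of each class was given by mean and SD, and the others by counts and ranges. Where a symbol had several rows, the row with the highest mean was used. Alternatives were other filters, 3 other scalings, a pseudocount of 0.1, eBayes without trend, fits of only the groups compared, a covariate or restriction for genes listed at 0, a log2 limit of 1, the motif on the given strand only, and leaving out each tumor. Promoters were read from RefSeq (GRCh38.p14). Python 3.11.15, pandas 2.3.3 and matplotlib 3.10.9 were also used.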

Additional observations from a re-analysis of the deposited data

Results flagged for a closer look

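Of 68 sets of values, those of 17 named genes in 4 groups, 1 held a value far from the others of its group by Dixon's test: MFAP4 in tumor 3 at 216h, with 89.96 FPKM against 66.9 FPKM in the next tumor, a gap of 0.872 of the group's range. By chance about 1 in 20 sets would be marked. The cause was not tested.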

How the results depend on the processing

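No paired analysis was possible because each mouse gave 1 tumor and replicate numbers only name them. At 216h against 0h, the 24 calls became 16 with a log2 fold change of at least 1 and between 20 and 24 when each tumor was left out. Of the 24 genes, 18 were called in every refit they entered, 15 of them with a log2 fold change of at least 1. ELN, which entered the test only through the tumors at 216h, is among both the 18 and the 15. Members called lower there rose from 0 to 2 under quantile normalization, 4 under median scaling and 1 without the mitochondrially encoded genes. Over all tested genes, the 410 called lower became 980, 1274 and 709. At 216h against 96h, the 20 higher became 12 under each of these 3 scalings, 4 with the covariate for genes listed at 0, and 13 to 21 when each tumor was left out. Over all tested genes, the 1175 higher became 378, 321 and 412 under the 3 scalings and 43 with the covariate. The members called lower became 1, 2 and 1 under the 3 scalings and 1 in the fit of only the 2 groups. Over all tested genes, the 85 called lower became 314, 336 and 203 under the scalings and 114 in that fit. At 24h, the lower became 3 with a filter of 5 FPKM and 0 to 1 when each tumor was left out. With the filter, 30 of all 6699 tested genes were called lower. At 96h, the higher became 1 with that filter and 2, 1 and 2 under the 3 scalings. They became 1 with the covariate and 0 to 1 when each tumor was left out. Over all tested genes, the 36 called higher at 96h became 29 with the filter. They became 72, 53 and 81 under the scalings and 7 with the covariate. The causes were not tested. Of the 628 single-gene values recomputed, 12 changed sign, all of them not called: EFEMP1 at 216h against 0h (-0.11 under median scaling, and -0.0033 without tumor 2 at 0h and -0.0055 without tumor 2 at 216h), LOXL1 (-0.023 under quantile normalization, -0.22 under median scaling, -0.084 without the mitochondrially encoded genes), LAMB1 (-0.16 and -0.016 under the latter 2), SPARC (-0.099 under median scaling) and, as each tumor was left out, LOXL1 (-0.041 to 0.090), LAMB1 (-0.0068 to 0.16), EFEMP1 (up to 0.33) and ELN at 96h (-2.1e-05 to 0.28). The motif stood in 9 promoters on the given strand only, in place of 11. Depth is unknown, so no smallest detectable level can be given for low genes such as LAMB3.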
